A study of Mus musculus with 12 samples.

Results

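Transcripts of 8 genes that set the pace of glycolysis were followed in injured mouse liver with and without curcumin. They were the 4 Pfkfb isoforms (Pfkfb1, Pfkfb2, Pfkfb3 and Pfkfb4), Gckr, Pfkl, Pklr and Hk2. The 8 genes were chosen with earlier results of these data known, so their ranks, separations and ratios below are not independent of that choice. Their rows were taken from the count table of 56923 genes by symbol. All 8 were found and passed the filter on low counts. Total RNA was sequenced from whole livers of 12 mice, all wild-type C57BL/6J, and the 4 groups held 3 mice each, which the labels call biological replicates. Mice were 6 weeks old at the start. Every group, the control included, carried the same injury: 200 µL of 7.5% carbon tetrachloride (CCl4) in olive oil, injected into the abdomen 2 times a week for 6 weeks. CCl4 damages hepatocytes, and repeated doses cause fibrosis. The control group had CCl4 alone, and the sources used here do not say whether it was given an empty gavage. The other groups also received curcumin, the polyphenol of turmeric, by daily gavage for 2 weeks. The low dose was 25 mg/kg, the medium dose 50 mg/kg and the high dose 100 mg/kg. Mice were housed 3 to a cage, the labels do not say which mice shared one, and a part of the cage in any difference was not tested. No uninjured liver was analysed here.

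Glycolysis in the liver is steered mainly at 3 steps: the phosphorylation of glucose, the phosphofructokinase step and the pyruvate kinase step. Each Pfkfb protein is a bifunctional enzyme that both makes and breaks down fructose bisphosphate of the regulatory kind, the strongest activator of phosphofructokinase and an inhibitor of the opposing gluconeogenic phosphatase. The balance between its kinase and phosphatase activities differs between isoforms and, for several of them, with phosphorylation by hormone-controlled kinases. Transcript levels do not measure these activities.

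Libraries held 36015134 to 70376474 counts. Transcripts encoded by the mitochondrial genome took 30.3% to 64.7% of the counts, and 4 libraries lay under 50%: low replicate 3 (43.0%), medium replicate 1 (48.3%), high replicate 1 (30.3%) and high replicate 3 (42.1%). The summed level of 11 measured hepatocyte markers was 28382 to 49568 counts per 1000000 (CPM) in these 4 and 5868 to 12823 CPM in the other 8, so the labelled tissue was present in all. Kupffer cell and neutrophil marker sums were highest in control replicate 2 (176 and 40.3 CPM, against 48.9 to 112 and 4.83 to 12.4 CPM elsewhere). A skeletal muscle sum of 136 CPM set high replicate 1 apart from the 11 other libraries, at 1.34 CPM or below. In bulk tissue, fewer cells of a type and less RNA per cell cannot be told apart.

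Per kilobase of exon, the 8 genes spanned a wide range over the 12 libraries. Gckr was highest at 39.1 ± 14.8 CPM per kb (SD, n = 12), followed by Pklr at 19.4 ± 5.49 and Pfkfb1 at 4.08 ± 1.33. Pfkl (1.45 ± 0.21), Pfkfb2 (1.30 ± 0.69) and Pfkfb3 (0.948 ± 0.56) came next and did not differ beyond their spread. Pfkfb4, at 0.266 ± 0.14 CPM per kb, and Hk2, at 0.062 ± 0.04, were lowest. All other levels below are CPM scaled by the TMM method and, except for the Pfkfb isoform shares and their sum, are not corrected for length.

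Pfkfb3 is the isoform with the strongest excess of kinase over phosphatase activity and is inducible by hypoxia and inflammatory signals in many cell types. It was the only 1 of the 8 genes for which all 9 curcumin livers lay above all 3 controls, as 179 of 16839 genes did (1.06%). The gene was chosen with earlier results of these data known, so this separation is not independent support. Separations of levels, here and below, were counted on TMM-scaled CPM, and the share of all genes that separate under another scaling was not tested. RefSeq annotates 2 start sites of the gene, and the stretches upstream of them and of the liver-type start of Pklr are shown because these genes lay higher in curcumin livers than in controls. Bases that lie in annotated exons were left out. They are written 5′ to 3′ on the strand of the gene, in GRCm38.p6 coordinates, with matches to searched motifs in capitals.
Pfkfb3, downstream start, chr2:11502102-11502340, minus strand: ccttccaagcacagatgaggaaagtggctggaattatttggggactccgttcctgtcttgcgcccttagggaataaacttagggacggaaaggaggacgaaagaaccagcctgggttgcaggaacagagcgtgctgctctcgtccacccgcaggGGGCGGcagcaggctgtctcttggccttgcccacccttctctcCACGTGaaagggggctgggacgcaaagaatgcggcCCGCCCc
Pfkfb3, upstream start, chr2:11554078-11554179, minus strand: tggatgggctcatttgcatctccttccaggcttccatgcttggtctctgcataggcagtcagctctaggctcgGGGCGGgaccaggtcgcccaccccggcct
Pklr, liver-type start, chr3:89136373-89136571, plus strand: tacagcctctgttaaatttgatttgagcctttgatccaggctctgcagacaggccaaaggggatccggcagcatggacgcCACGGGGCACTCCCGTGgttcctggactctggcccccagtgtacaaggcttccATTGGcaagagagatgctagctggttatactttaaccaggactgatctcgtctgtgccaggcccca
In the downstream Pfkfb3 stretch the capitals mark 1 E-box (CACGTG), whose last letters are also the core of a hypoxia response element (ACGTG), and 2 GC boxes (GGGCGG, on either strand). The upstream stretch holds 1 GC box. Its full window of 250 bases, exon bases included, holds 2 GC boxes and 1 ACGTG. In the Pklr stretch the capitals mark 1 match to a carbohydrate response element (ChoRE) (CACGNG, then 5 bases of any kind, then CNCGTG) and 1 CCAAT box (read as ATTGG on this strand). The background was 32851 RefSeq promoter windows of 250 bases, with exon bases kept, searched on both strands. An E-box was found in 6.02% of them, ACGTG in 16.6%, a GC box in 32.7% and CCAAT in 33.8%. The ChoRE was found in 13 windows (0.0396%), among them that of the liver-type start of Pklr. The window of the other annotated Pklr start, not shown, held no match to any searched motif. None of the 15 windows of the 8 genes held the FOXO motif TGTTTAC (3.17% of all windows), the cAMP response element (CRE) TGACGTCA (1.55%) or the AP-1 motif TGANTCA (6.75%). These matches are letters in the sequence and no factor binding was measured.

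Pfkfb3 stood at 3.57, 2.30 and 1.94 CPM in control replicates 1, 2 and 3. With the low dose it was at 5.97, 5.70 and 10.8 CPM, with the medium dose at 6.33, 4.12 and 8.67 CPM, and with the high dose at 8.71, 11.8 and 16.1 CPM. The highest control therefore lay below the lowest curcumin liver, and the high-dose livers overlapped with the low-dose ones. The lowest high-dose liver (8.71 CPM) lay just above the highest medium-dose liver (8.67 CPM). These levels rest on 87 to 1018 counts per library. By library totals the margin over the controls was narrower, with 204 counts of 60749638 in low replicate 2 and 142 of 42917049 in control replicate 1. Against the control, the log2 fold change was 1.53 ± 0.37 (SE, n = 3 against 3) at the low dose, 1.29 ± 0.37 at the medium dose and 2.23 ± 0.38 at the high dose. Group means were 2.88, 2.45 and 4.69 times the control mean. None passed the test after adjustment over all 16839 genes (edgeR adjusted p = 0.764, 0.596 and 0.32).

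No gene passed in any of these comparisons: edgeR called 0 of 16839 genes (0%) at the low, medium and high dose, for the mean of the doses, for the slope on dose and among the doses. At an unadjusted p under 0.05 it had 1008, 940, 2152, 1577, 1853 and 614 genes in that order (5.99%, 5.58%, 12.8%, 9.37%, 11% and 3.65%). DESeq2 called 42, 89, 172, 165, 67 and 16 genes at the adjusted threshold. In edgeR's order of p-values Pfkfb3 stood at rank 26 at the low dose, 115 at the medium dose and 3 at the high dose. These ranks, too, belong to a gene chosen with earlier results of these data known.

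The mean of the 3 doses gave Pfkfb3 a log2 fold change of 1.69 ± 0.33 (edgeR adjusted p = 0.225). The fitted slope was 1.80 ± 0.44 on the log2 scale over 100 mg/kg (edgeR adjusted p = 0.329). A test of differences among the 3 doses did not pass either (edgeR adjusted p = 0.986), so no dose is shown to differ from another. The call depended on the tool. DESeq2 gave adjusted p = 0.000191 at the high dose, 0.000587 for the mean and 0.0234 for the slope, and limma voom with library weights gave adjusted p = 0.0203 and 0.0381 for the first 2 of these. Leaving out single libraries kept the log2 fold change between 1.98 and 2.52 at the high dose and between 1.52 and 1.98 for the mean. Without the 4 libraries under 50% mitochondrial, a set chosen after the data were seen, it was 1.15, 1.32 and 2.18 at the 3 doses. That fit has 2 low-dose livers, 2 medium-dose livers and 1 high-dose liver, which is assumed to vary like the other groups.

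**Figure D1:**
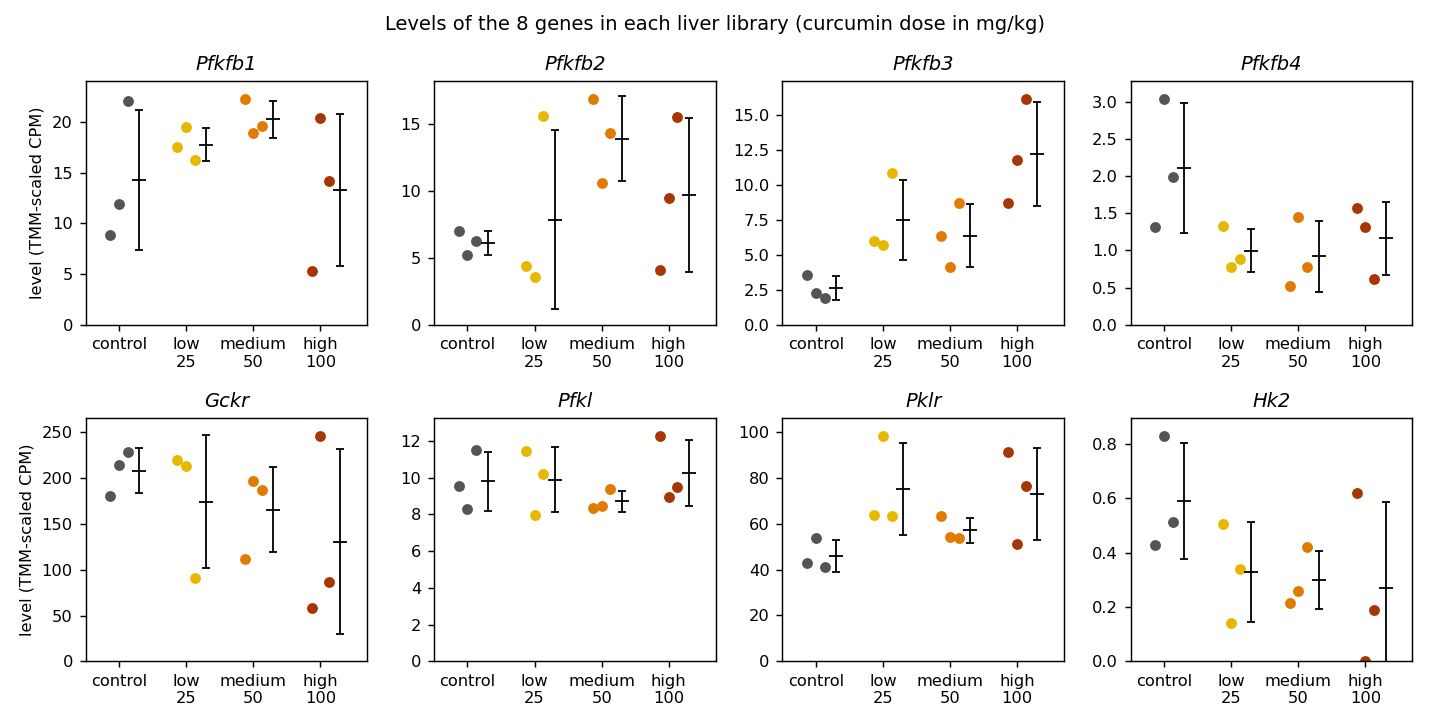
Level of each of the 8 genes in TMM-scaled CPM (linear axes from 0) in the 12 livers, 1 point per mouse, with the group mean and SD beside the points (3 mice per group; the part of an SD bar below 0 is not drawn). Pfkfb3 is the panel in which all 9 curcumin livers, at 4.12 CPM or more, lie above the 3 controls, at 3.57 CPM or less.

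Pfkfb1 is the liver isoform, whose phosphorylation under glucagon turns it towards its phosphatase activity. It was at 8.86, 11.9 and 22.1 CPM in the controls, 17.6, 19.5 and 16.2 CPM at the low dose, 22.3, 18.9 and 19.6 CPM at the medium dose, and 5.35, 20.4 and 14.2 CPM at the high dose. Control livers alone spanned most of the range of all livers, and every group overlapped with them. Log2 fold changes were 0.32 ± 0.42, 0.51 ± 0.42 and -0.11 ± 0.42 at the rising doses (SE, n = 3 against 3; edgeR adjusted p = 0.921, 0.997 and 0.932). For the mean of the doses, the value of 0.24 ± 0.35 went to -0.01 without control replicate 1 and to 0.70 without control replicate 3. At the high dose it was 0.35 without control replicate 3 and -0.55 without high replicate 2.

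Pfkfb2, the isoform best known from heart, is activated by insulin-dependent phosphorylation. In the controls it was at 6.97, 5.18 and 6.24 CPM, and at the low dose at 4.41, 3.60 and 15.6 CPM. At the medium dose it was at 16.9, 10.6 and 14.3 CPM, and at the high dose at 4.06, 9.49 and 15.5 CPM. The 3 medium-dose livers lay above all controls, whereas the other doses had livers on both sides of them. The log2 fold change was 0.37 ± 0.54, 1.18 ± 0.54 and 0.66 ± 0.54 at the rising doses (edgeR adjusted p = 0.926, 0.892 and 0.595; n = 3 against 3). Without low replicate 3 the low-dose value was -0.62. The high-dose value was 0.14 without high replicate 3 and 1.04 without high replicate 1. Of the 50-base stretches in Pfkfb2 transcripts, 17.3% also occur in other genes: Yod1, which overlaps on the opposite strand, Gm29427, which overlaps on the same strand, and Mms19. Yod1 had 453 to 2167 counts per library and Gm29427 67 to 324. The sources used here do not state the strand used in counting, so reads of Pfkfb2 and Yod1 cannot be told apart where they overlap. For Gm29427 the strand would not separate them.

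Pfkfb4, another hypoxia-inducible isoform, was low, with 28 to 201 counts per library. Controls were at 1.31, 3.04 and 1.98 CPM, low-dose livers at 1.33, 0.78 and 0.88 CPM, medium-dose livers at 0.53, 1.45 and 0.78 CPM, and high-dose livers at 1.57, 1.32 and 0.62 CPM. Control replicate 2, the library with the highest neutrophil and Kupffer cell marker sums, was the highest of all. Of the 9 curcumin livers 5 lay below every control and the other 4 overlapped with control replicate 1. Log2 fold changes were -1.10 ± 0.48, -1.20 ± 0.47 and -0.86 ± 0.47 at the rising doses and -1.05 ± 0.36 for their mean (edgeR adjusted p = 0.813, 0.8, 0.438 and 0.397). Without control replicate 2 the mean was -0.69, and the high-dose value moved to -0.50. The part of the other cell types in this difference was not tested.

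The make-up of the Pfkfb transcripts was computed per kilobase of exon, as the share of each isoform in their sum. Pfkfb1 held the largest share in all 12 livers, from 39.6% in high replicate 1 to 78.3% in control replicate 3. Pfkfb3 made up 12.1%, 6.60% and 3.66% in the controls, 13.1%, 12.0% and 18.3% at the low dose, 9.50%, 7.77% and 14.0% at the medium dose, and 34.2%, 19.0% and 26.9% at the high dose. Its mean share was 7.45% ± 4.28 in controls and 26.7% ± 7.63 at the high dose (SD, n = 3 each), and these groups did not overlap. The largest share, in high replicate 1, went with the lowest Pfkfb1 level of the series (5.35 CPM). Pfkfb3 itself was lowest there among the high-dose livers (8.71 CPM). Mitochondrial transcripts took 30.3%, 64.7% and 42.1% of counts in high replicates 1, 2 and 3. Their part in the isoform shares was not tested, nor was how often shares of other genes separate. The Pfkfb4 share was 8.74% ± 4.19 in controls and 2.48% ± 1.58 at the medium dose. The summed level of the 4 isoforms ran from 3.37 CPM per kb in high replicate 1 to 8.82 in medium replicate 1.

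**Figure D2:**
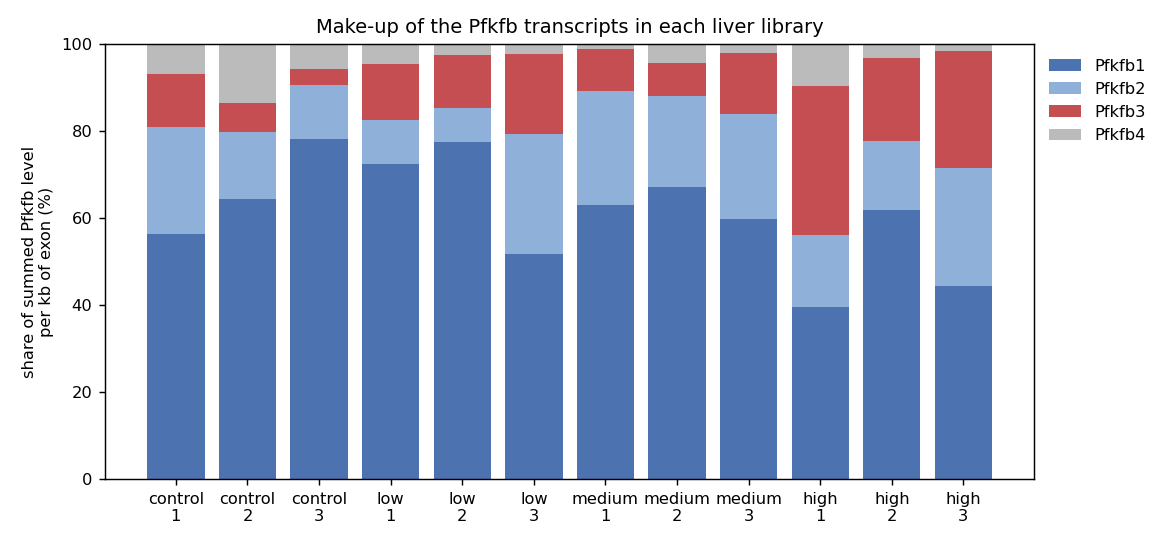
Share (%) of each isoform in the summed Pfkfb level per kilobase of exon, 1 stacked bar per liver. The Pfkfb3 segment takes 19.0% to 34.2% in the 3 high-dose livers and 3.66% to 12.1% in the 3 controls.

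A ratio of counts within 1 library does not depend on how libraries are scaled to each other. The log2 ratio of Pfkfb3 to Pfkfb1 counts was -1.31, -2.37 and -3.50 in the controls and 0.70, -0.79 and 0.19 at the high dose. The difference in means was 2.43 with no overlap (exact two-sided permutation p = 0.1, the smallest that 3 against 3 allows). It was 1.09 at the low dose and 0.66 at the medium dose (exact permutation p = 0.3 and 0.4), with overlap. Over all 9 curcumin livers the difference was 1.39 (exact permutation p = 0.0727, and 0.24 after Benjamini-Hochberg adjustment over the 12 ratio tests). Control replicate 3 had the lowest ratio, and without it the low-dose difference was 0.53, the medium-dose difference 0.11 and that over all curcumin livers 0.84. The highest ratios were those of high replicates 1 and 3, with 30.3% and 42.1% of counts from the mitochondrial genome. High replicate 2, with 64.7%, also lay above all controls. A relation of this ratio to the mitochondrial share was not tested.

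Gckr encodes the glucokinase regulatory protein, which holds the hepatic glucose-phosphorylating enzyme inactive in the nucleus when little sugar arrives. It was at 181, 214 and 229 CPM in the controls and at 220, 212 and 90.4 CPM at the low dose. Medium-dose livers were at 112, 197 and 187 CPM and high-dose livers at 58.3, 246 and 87.0 CPM. The highest and the lowest liver of the series both belong to the high-dose group. Log2 fold changes of -0.25 ± 0.52, -0.33 ± 0.52 and -0.67 ± 0.52 were of the size of their errors (edgeR adjusted p = 0.948, 0.997 and 0.577; n = 3 against 3). Single libraries moved them: the high-dose value was -1.52 without high replicate 2 and -0.32 without high replicate 1, the medium-dose value -0.11 without medium replicate 1, and the low-dose value 0.05 without low replicate 3.

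On the TMM scale the Gckr level followed the mitochondrial share of the library. The 4 libraries under 50% mitochondrial were at 58.3 to 112 CPM and the other 8 at 181 to 246 CPM, whatever their group. Over the 12 livers Pearson's r between log2 CPM and the share was 0.986 and Spearman's rho 0.958 (permutation p = 1e-05 for both, the smallest that 100000 permutations can give; adjusted p = 8e-05 over the 8 genes). Without the 2 libraries farthest from the median share, r was 0.967, and within the 8 libraries at 50% or more it was 0.765. The relation was the same with mitochondrial genes left out of the scaling (r = 0.985). Both scalings used the TMM method. The main TMM factors were 1.34 to 1.75 in the 4 libraries under 50% and 0.589 to 1.20 in the other 8. Raw Gckr counts were 7605 of 60749638 in low replicate 2, at a share of 64.1%, and 8195 of 60338975 in low replicate 3, at 43.0%. By library total, Gckr was thus not lower at the lower share in this pair. High replicate 1, at 30.3%, had 6295 of 61857700. The relation over the 12 livers for levels scaled by library totals was not tested. Hepatocyte marker sums were higher in the same 4 libraries in which TMM-scaled Gckr was lower. Without them the Gckr log2 fold change was 0.04 at the low dose, -0.10 at the medium dose, 0.24 at the high dose and 0.06 for the mean of the doses. The high-dose value then rests on high replicate 2 alone, the highest Gckr liver of the series.

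None of the other 7 genes showed such a relation that passed (adjusted permutation p of 0.164 or more for Pearson's r over the 12 livers). For a pair of them 1 library decided this: r for Pklr was -0.506, and -0.826 without low replicate 2 (adjusted permutation p = 0.00492), and r for Pfkfb2 was -0.25, and -0.763 without high replicate 1 (adjusted permutation p = 0.0266). Pfkfb1 had r = 0.593, and 0.027 without high replicates 1 and 3. For Pfkfb3 r was -0.493, and 0.199 within the 8 libraries at 50% or more. With the share as a covariate its log2 fold change was 1.48, 1.25 and 2.11 at the 3 doses.

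**Figure D3:**
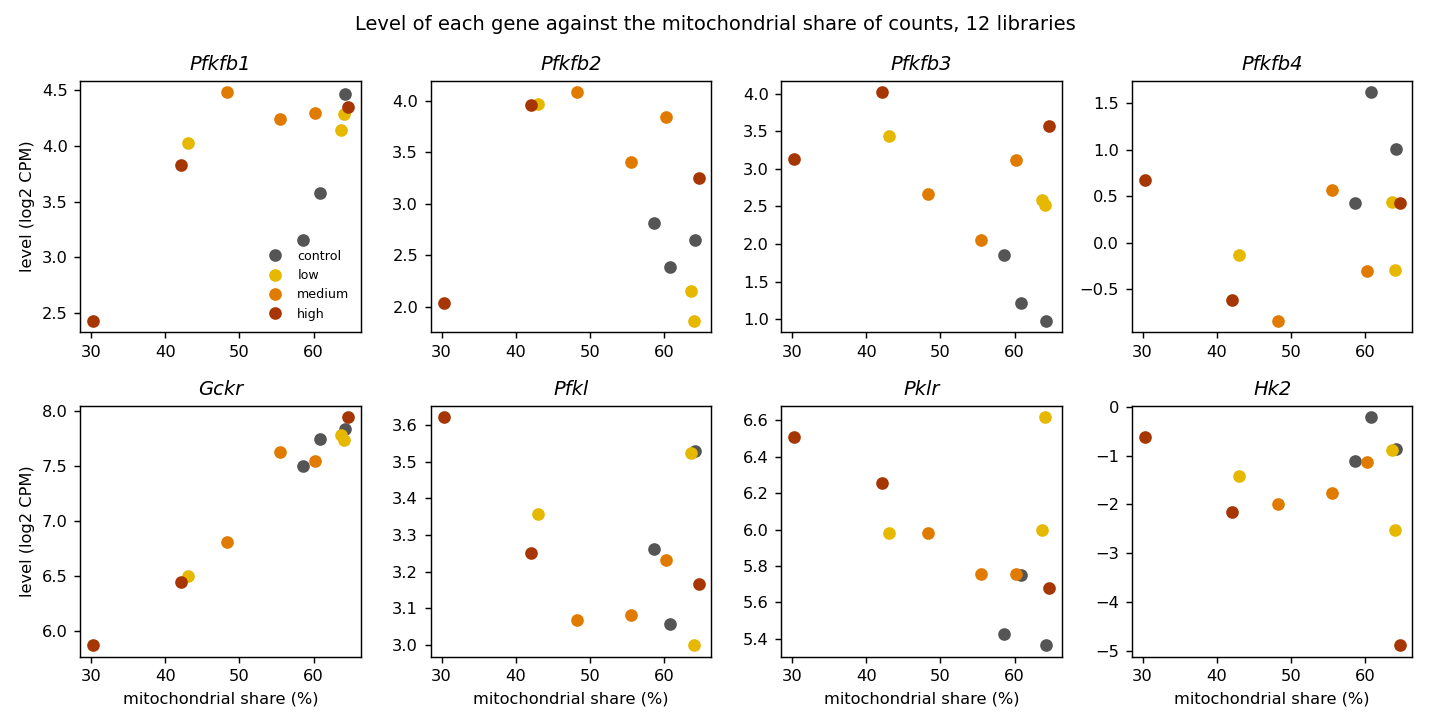
Level of each gene (log2 of TMM-scaled CPM) against the mitochondrial share of counts (%), 1 point per liver, coloured by group. Gckr lies along 1 line through all 4 groups (r = 0.986). In the Pfkfb3 panel the 3 controls, at shares of 58.6% to 64.2%, are the lowest livers. Low replicates 1 and 2 and medium replicate 3 also lie in that range of shares, and no high-dose liver does.

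Hk2, a hexokinase typical of muscle and of dedifferentiated or tumour hepatocytes, was close to the limit of detection. Its levels were 0.43, 0.83 and 0.51 CPM in the controls, 0.51, 0.14 and 0.34 CPM at the low dose, 0.22, 0.26 and 0.42 CPM at the medium dose, and 0.62, 0 and 0.19 CPM at the high dose. High replicate 2 had 0 counts, which allows a level of up to 0.0705 CPM by a limit of 3 counts (counting error only), and the highest library had 67 counts. The medium-dose livers lay below all controls by a narrow margin. Log2 fold changes of -0.86 ± 0.93, -0.98 ± 0.92 and -1.07 ± 0.91 had errors as large as themselves (edgeR adjusted p = 0.903, 0.997 and 0.611). High replicate 1, with 0.62 CPM, is the library with skeletal muscle markers, and without it the high-dose value was -2.52, with a fit that includes the library at 0. Without high replicate 2, the library at 0, it was -0.53.

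Pfkl, the liver subunit of phosphofructokinase and thus the enzyme on which the Pfkfb product acts, was the steadiest of the 8 genes, with a coefficient of variation of 14.8% over the 12 livers. Controls were at 9.56, 8.29 and 11.5 CPM, low-dose livers at 11.5, 7.96 and 10.2 CPM, medium-dose livers at 8.35, 8.43 and 9.36 CPM, and high-dose livers at 12.3, 8.95 and 9.49 CPM. Every dose group overlapped with the controls. Log2 fold changes were 0.01 ± 0.22, -0.17 ± 0.22 and 0.07 ± 0.22 (edgeR adjusted p = 0.992, 0.997 and 0.914). Their signs turned under other scalings and with single libraries left out. Relative to Pfkl, the platelet-type subunit Pfkp gave log2 count ratios of -2.40 ± 0.48 in controls and -2.54 ± 0.57 over the 9 curcumin livers (SD; exact permutation p = 0.736).

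Pklr, the pyruvate kinase of liver and red cells and a textbook target of the carbohydrate-responsive factor ChREBP, is the gene whose promoter stretch above holds the ChoRE match. It was at 43.0, 53.9 and 41.1 CPM in the controls and at 63.9, 98.2 and 63.1 CPM at the low dose. Medium-dose livers were at 63.2, 54.0 and 53.9 CPM and high-dose livers at 91.1, 51.2 and 76.3 CPM. On this TMM scale 8 of the 9 curcumin livers lay above every control, with high replicate 2 inside the control range. By library totals fewer did: low replicate 1, with 1639 counts of 39751127, lay below control replicate 2, with 3567 of 70376474. Medium replicates 2 and 3 cleared the highest control by less than 0.1 CPM. Log2 fold changes were 0.71 ± 0.30, 0.31 ± 0.30 and 0.66 ± 0.30, and 0.56 ± 0.25 for the mean of the doses (edgeR adjusted p = 0.813, 0.997, 0.389 and 0.532). Without low replicate 2 the low-dose value was 0.46.

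Pkm, the pyruvate kinase gene of muscle and most non-parenchymal cells, was at 6.20 ± 0.21 CPM in controls and at 4.87 ± 1.16, 4.49 ± 0.46 and 7.51 ± 2.78 CPM at the rising doses (SD, n = 3 each). High replicate 1, the library with skeletal muscle markers, was at 10.7 CPM, and high replicates 2 and 3 were at 5.40 and 6.48 CPM. The log2 ratio of Pklr to Pkm was 2.74, 3.12 and 2.78 in the controls, and 3.43, 4.28 and 4.12 at the low dose. It was 3.67, 3.59 and 3.74 at the medium dose and 3.09, 3.24 and 3.56 at the high dose. Low-dose and medium-dose livers lay above all controls by 1.06 and 0.79 on average (exact permutation p = 0.1 for each, the smallest possible), and high-dose livers overlapped (0.42, exact permutation p = 0.2). Over all 9 curcumin livers the difference was 0.75 (exact two-sided permutation p = 0.0182, which did not pass after adjustment over the 12 ratio tests, at 0.218). Of the 50-base stretches in Pklr transcripts, 20.5% also lie in Hcn3 on the opposite strand, which had 97 to 395 counts against 1639 to 9833 for Pklr.

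**Figure D4:**
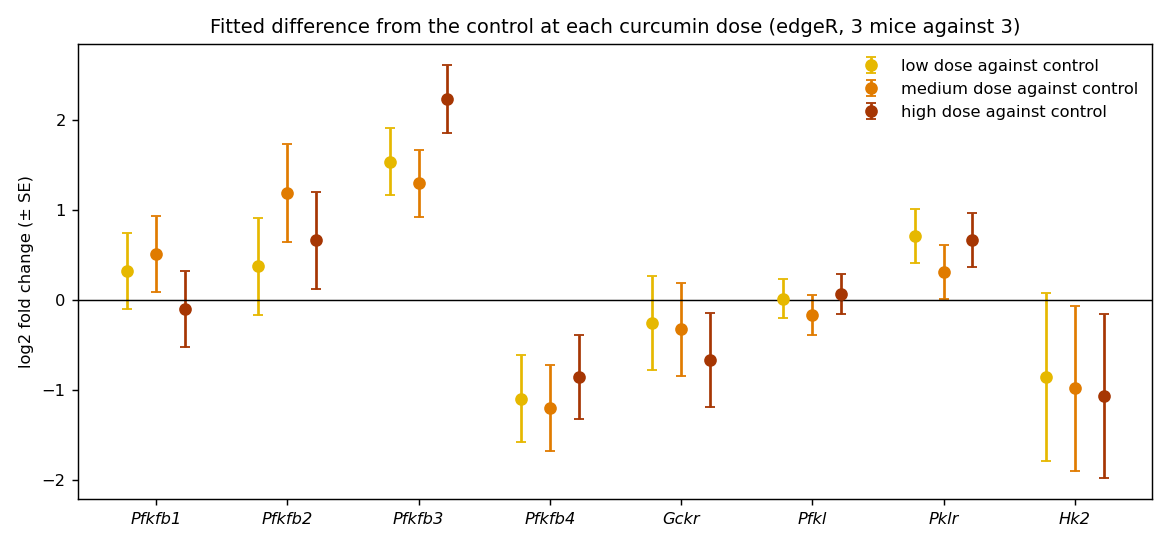
Log2 fold change against the control at each dose (edgeR, points, with SE as bars) for the 8 genes. Pfkfb3 lies highest at each dose (1.53, 1.29 and 2.23), Pfkl lies next to 0, and no value passed after adjustment over all genes.

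Counted over the 8 genes, 5 lay higher and 3 lower than the control at the low dose, and 4 lay on either side at the medium and the high dose (51.1%, 51.9% and 52.2% of all genes lay higher). Their median log2 fold change was 0.17, 0.07 and -0.02, beside 0.01, 0.02 and 0.03 over all genes tested. Groups did not overlap for 2 of the 8 at the low dose (Pfkfb3 and Pklr, higher), where 13.8% of all genes had no overlap. At the medium dose it was 4 of 8 (Pfkfb2, Pfkfb3 and Pklr higher, Hk2 lower; 14% of all genes), and at the high dose 1 of 8 (Pfkfb3; 13% of all genes). The doses share their control livers, so these counts are not independent of each other. Cell type markers differed between the same groups: 11 of 11 hepatocyte markers lay higher at each dose (median log2 fold change 0.55, 0.88 and 1.21), and 7 of 7 tested neutrophil markers lay lower (-1.69, -1.56 and -1.46). The hepatocyte marker sum exceeded every control only in the 4 libraries under 50% mitochondrial, all curcumin livers (28382 to 49568 CPM). It was 5868 to 12823 CPM in the other 8, controls included. Kupffer cell markers lay lower for 9, 9 and 8 of 9 (-0.98, -0.99 and -0.74). Their part in the values of the 8 genes was not tested.

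Other enzymes of the pathway lay on both sides of the control. Of 20 further glycolytic enzymes tested, 11 lay higher and 9 lower for the mean of the doses (50.9% of all genes tested lay higher), with a median log2 fold change of 0.07 beside 0.01 for all genes, and 0 passed. The lowest p-values in this list belonged to Hk3, a hexokinase of myeloid cells (-0.83 ± 0.23), and Gpi1, glucose phosphate isomerase (0.52 ± 0.25). Gluconeogenic enzymes lay 4 higher and 4 lower (median 0.16). Slc37a4, the carrier that feeds glucose phosphate to the final gluconeogenic phosphatase, was at 0.73 ± 0.25 (edgeR adjusted p = 0.387). Taken by dose, the 20 glycolytic enzymes lay 11 higher and 9 lower at the low dose and 5 higher and 15 lower at the medium dose. At the high dose 13 lay higher and 7 lower. Their medians were 0.07, -0.12 and 0.37 at the rising doses, beside 0.01, 0.02 and 0.03 for all genes. The part of high replicate 1, the library with skeletal muscle markers, was not tested.

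Among 10 genes of sugar and lactate transport and fructose entry, 5 lay higher and 5 lower for the mean of the doses (median 0.15). Khk, ketohexokinase, which commits fructose to metabolism below the phosphofructokinase step, was at 58.2, 63.2 and 71.4 CPM in the controls. It was at 125, 175 and 88.2 CPM at the low dose, 117, 89.2 and 177 CPM at the medium dose, and 127, 149 and 121 CPM at the high dose. As for Pfkfb3, all 9 curcumin livers lay above all 3 controls, as in 1.06% of all genes tested. The log2 fold change of 1.02 ± 0.30 for the mean of the doses did not pass (edgeR adjusted p = 0.322). Slc16a3, a lactate exporter of glycolytic cells, was at -1.56 ± 0.62 (edgeR adjusted p = 0.474), and at -0.65 without control replicate 2. Of 11 genes at the pyruvate dehydrogenase gate, which lets pyruvate into the citric acid cycle, 9 lay higher and 2 lower (median 0.23), and 0 passed.

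Of 19 regulators of glycolytic genes, 10 lay higher and 9 lower (median 0.02). Foxo1, the insulin-restrained factor that favours gluconeogenic over glycolytic genes, was at 7.65, 6.59 and 6.33 CPM in the controls. It was at 8.23, 10.4 and 16.5 CPM at the low dose, 14.5, 14.0 and 18.5 CPM at the medium dose, and 14.4, 19.5 and 18.6 CPM at the high dose. All 9 curcumin livers lay above the controls, as in 1.06% of all genes tested (log2 fold change 1.11 ± 0.23 for the mean of the doses, edgeR adjusted p = 0.235). The same separation held for Epas1 and Hnf4a of this list. These separations are on TMM-scaled levels. By library totals Foxo1 and Hnf4a overlapped with the controls. Low replicate 1 had 211 and 4421 counts of 39751127 for them, and control replicate 1 had 304 and 5547 of 42917049. Epas1, which encodes a hypoxia-inducible factor subunit, was at 0.79 ± 0.21, and Txnip, a glucose-induced brake on glucose uptake, at -0.88 ± 0.36 (edgeR adjusted p = 0.29 and 0.492). Without control replicate 3 Txnip was at -0.57.

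Since Pfkfb3, Pfkfb4 and Hk2 are known hypoxia targets, a list of 20 such targets that includes all 3 was counted. For the mean of the doses 12 lay higher and 8 lower (median 0.19), and 0 passed. Pfkfb3 was the highest member of this list and Pfkfb4 the lowest, and Hk2 lay beside Pfkfb4. Egln1, an oxygen-sensing hydroxylase, was at 0.82 ± 0.34, and Kdm3a, a histone demethylase, at -0.70 ± 0.21 (edgeR adjusted p = 0.494 and 0.325).

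**Figure D5:**
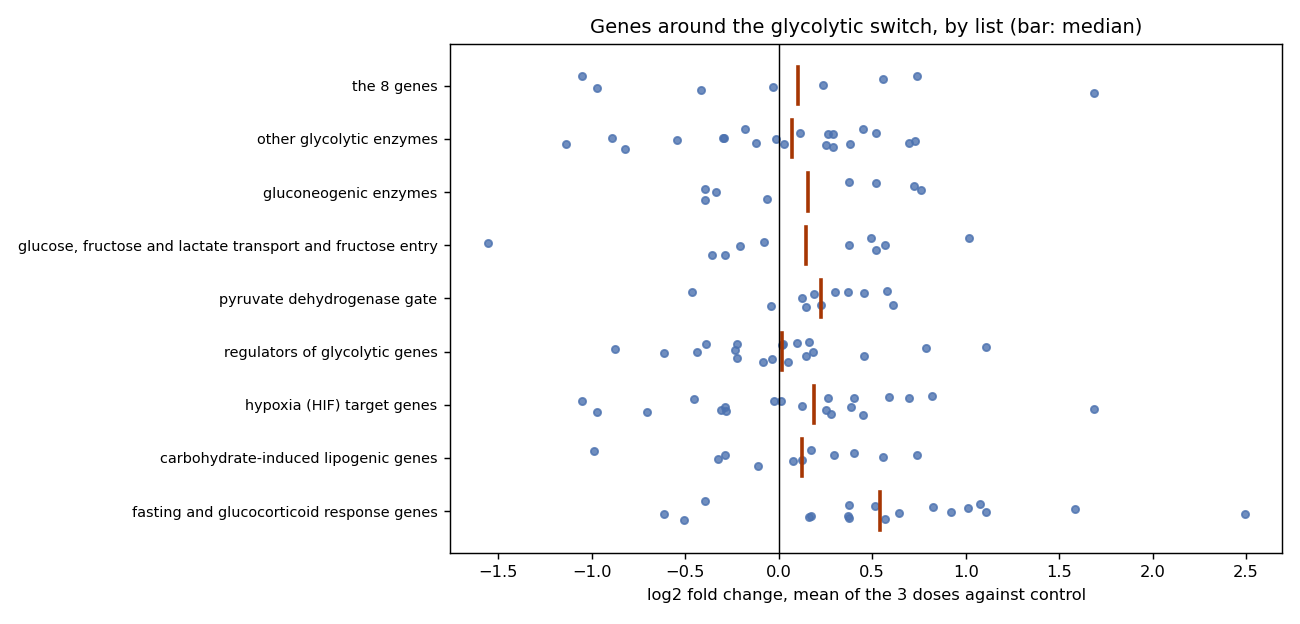
Log2 fold change of the mean of the 3 doses against the control, 1 point per tested gene, by list, with the list's median as a bar (vertical position within a list has no meaning; a gene in several lists is drawn in each). Medians lie between 0.02 and 0.23 except for fasting and glucocorticoid response genes at 0.54, and no gene passed after adjustment.

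Genes whose log2 CPM ran closest to that of each member over the 12 livers were listed by Pearson's r, as a description of libraries that share depth and mitochondrial share. For Pfkfb3 these were Npm3 (r = 0.903), Rbm14 (0.899) and Lrrc28 (0.891). For Pfkfb1 they were Zfp661 (0.922), Nsd3 (0.917) and Glyctk (0.917), for Pfkfb2 Gin1 (0.925), Ing3 (0.925) and Trmt61b (0.915), and for Pfkfb4 Kremen1 (0.921), Map4k4 (0.886) and Nrros (0.884). Gckr had the closest matches, with Ccdc84 (0.986), Mtmr14 (0.979) and Ankzf1 (0.977). Pklr ran with Sec61a1 (0.958), Pgls (0.941) and Rpl10a-ps1 (0.939), Pfkl with Atxn7l1 (0.858), Kif1c (0.851) and Irf2bp1 (0.847), and Hk2 with Cbx7 (0.857), Lyn (0.832) and Sipa1l3 (0.802). No gene appeared in the lists of 2 members.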

How the data were processed

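The authors deposited 1 table of raw counts per gene for the 12 livers, whole numbers with no normalization, and all columns matched a label. Per the submitters' processing notes, reads were handled with StringTie 2.2.1, STAR 2.7.10b and fastp 0.23.4, and the build was mm39; how counting treated strand and multi-mapping reads is not stated there. Symbols and exon lengths came from GENCODE M21, an annotation of another build, with a symbol for 52073 of 56923 gene IDs (91.5%); IDs without one held 0.812% of counts. Promoter windows (RefSeq, GRCm38.p6) were matched by symbol for all 8 genes. Totals of 36015134 to 70376474 counts put 3 counts at 0.0426 to 0.0833 CPM before TMM scaling.

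Counts were tested in R 4.3.3 with edgeR 4.0.16 (filterByExpr by group, 16839 genes; TMM; robust quasi-likelihood fit of all 12 libraries; Benjamini-Hochberg over all genes, threshold 0.05). Fits were tested on simulated data. Each dose, the mean of the doses, a slope on dose and the difference among doses were tested. Each SE was derived from a fold change with the F value of its test. Ratios (0.5 added to each count) were compared by exact permutation, and relations with the mitochondrial share (37 mitochondrial genes) by 100000 permutations. Alternatives were DESeq2 1.42.0, limma 3.58.1 voom with library weights, no low count filter, scaling by totals or without mitochondrial genes, the mitochondrial share as covariate, a replicate block, only the groups compared, single libraries left out and, added after seeing the data, the libraries under 50% mitochondrial left out. The 8 genes and the lists were chosen with earlier results of these data known. All 8 are named in every comparison, list genes by the up to 4 smallest unadjusted p for the mean of the doses, of which some are given here (1 is not reported), and the 3 closest genes by r over tested genes, leaving out those whose log2 CPM averaged under 1, predicted loci and receptor segments.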

Additional observations from a re-analysis of the deposited data

How the results depend on the processing

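Apart from single libraries left out, the 8 genes' fits under the alternatives gave 308 values with the same direction and call, 31 with the opposite sign and 5 that newly passed, all 5 for Pfkfb3 (DESeq2 and voom, values in the report). Genes called were 42, 89 and 172 at the rising doses, 165 for the mean, 67 for the slope and 16 among doses by DESeq2. By voom they were 35 at the medium and 256 at the high dose, 32 for the mean and 12 among doses. There were 3 for the mean with no low count filter, and 1 and 8 at the low and medium dose with only the 2 groups compared. Without the libraries under 50% mitochondrial they were 3, 7 and 6 at the rising doses, 3 for the mean, 1 for the slope and 7 among doses. Signs that turned were as follows, as log2 fold changes. DESeq2 gave Pfkl -0.01 at the low dose, as did scaling without mitochondrial genes (-0.011), and the 2 groups alone gave -0.006. Voom gave -0.056 for the Pfkl slope, -0.23 for Pfkfb2 at the low dose, and 0.073 and 0.14 for Pfkfb1 at the high dose and in slope. With the mitochondrial share as a covariate Pfkl was at -0.019 (low), -0.05 (high) and -0.08 (slope), Gckr at 0.011 (high), 0.044 (medium) and 0.052 (slope), Pfkfb1 at 0.32 (high) and 0.20 (slope), and Mdh1 and Pdk2 at -0.07 and -0.029 (mean). Scaling by totals gave Hk2 0.027 (slope), Gckr 0.092 (medium), Pfkl 0.29 (medium) and 0.42 (mean), Pfkfb1 0.44 (high) and 0.43 (slope), and Pck2 and Acaca 0.065 and 0.077 (mean). Without the libraries under 50%, Pfkl was at -0.032 (low), -0.13 (high) and -0.16 (slope), Pfkfb2 at -0.64 (low), Gckr at 0.037 (low), 0.24 (high), 0.06 (mean) and 0.15 (slope), Pfkfb1 at 0.51 (high) and 0.57 (slope), and Mdh1 and Pdk2 at -0.12 and -0.12 (mean). The cause of these turns was not tested. Leaving out single libraries gave 0 to 2 genes called at the low dose (2 without low replicate 3), 0 to 1 for the mean and 0 to 4 among doses (4 without high replicate 2). It put Pfkfb2 between -0.62 and 0.72, Gckr between -0.46 and 0.048 and Pfkl between -0.11 and 0.15 at the low dose, Pfkfb1 between -0.55 and 0.35 and Pfkl between -0.084 and 0.20 at the high dose. For the mean it put Pfkfb1 between -0.012 and 0.70, Pfkl between -0.14 and 0.10, Pnpla3 between -1.44 and 0.61 and Acaca between -0.58 and 0.07. Slopes lay between -0.45 and 0.30 for Pfkfb1 and between -0.13 and 0.15 for Pfkl. The Pfkp to Pfkl ratio lay between -0.88 and 0.13 (low), -0.16 and 0.32 (medium), -0.38 and 0.094 (high), and -0.35 and 0.13 (all curcumin). The relation to the mitochondrial share had r between -0.51 and 0.059 for Pfkl and between -0.30 and 0.045 for Hk2. Replicate numbers gave no clear pairing of the samples, though pairing was not tested. The mean correlation of deviations was 0.011 for the same number (-0.257 to 0.445 over 18 pairs) and -0.006 for other numbers. Of the 12 libraries 6 correlated best with their own number. With the replicate block 0 genes were called in each comparison, and the direction and side of the threshold of all 40 fits of the 8 genes were as without it (Pfkfb3 1.45, 1.21 and 2.18 at the rising doses). Depth limits Hk2 and Pfkfb4 most.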

Other observations

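Lipogenic genes that respond to carbohydrate, a list that includes Pklr, lay 7 higher and 4 lower of 11 for the mean of the doses (median log2 fold change 0.13, beside 0.01 over all genes), and 0 passed. At the medium dose 3 lay higher and 8 lower (median -0.06). Thrsp, a regulator of lipogenesis, was at 0.74 ± 0.43 and Pnpla3, a lipid droplet lipase, at -0.99 ± 0.64 for the mean of the doses (edgeR adjusted p = 0.583 and 0.624). Without control replicate 2 the Pnpla3 value turned to 0.61 and that of Thrsp was 1.11.

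Fasting and glucocorticoid response genes lay 17 higher and 1 lower of 18 at the low dose, and 15 higher and 3 lower at the medium dose and at the high dose. Their medians were 0.42, 0.49 and 0.86, and 0 passed in any of these comparisons. Hepatocyte markers lay higher beside them, 11 of 11 at each dose with medians of 0.55, 0.88 and 1.21, while 7 of 7 neutrophil markers and 9, 9 and 8 of 9 Kupffer cell markers lay lower. Only the 4 curcumin libraries under 50% mitochondrial had a hepatocyte marker sum above every control. Their part in this list's values was not tested. Lpin1, a phosphatidate phosphatase induced on fasting, was at 25.2, 18.4 and 17.2 CPM in the controls, 26.4, 32.4 and 174 CPM at the low dose, 131, 136 and 141 CPM at the medium dose, and 79.9, 147 and 193 CPM at the high dose (log2 fold change 2.49 ± 0.58 for the mean of the doses, edgeR adjusted p = 0.248). On TMM-scaled levels all 9 curcumin livers lay above the 3 controls, by a small margin in low replicate 1. On that scale the same separation held for Foxo1 and Per1 of this list and for 1.06% of all genes tested. By library totals Lpin1, Foxo1 and Per1 overlapped with the controls. Low replicate 1 had 676, 211 and 1107 counts of 39751127 for them, and control replicate 1 had 1000, 304 and 1306 of 42917049. Fkbp5 and Per1, which glucocorticoids induce, were at 1.58 ± 0.49 and 0.92 ± 0.27 (edgeR adjusted p = 0.327 and 0.319). Earlier results of these data were known when this list was written.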
